A study of Mus musculus with 6 samples.

Results

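AP-1 is a dimeric transcription factor built from proteins of the Fos and Jun families, and 6 genes that encode its subunits are described here in mouse prefrontal cortex: Fos, Fosb and Fosl2 of the Fos family and Jun, Junb and Jund of the Jun family. They are 6 of the 23284 gene rows of the deposited count table, and 6 of 6 passed the filter on low counts, which kept 15258 genes. The genes were chosen by family name, with their housing differences in these libraries already known. Their values in that contrast are therefore given as a description, with no test.

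RNA was sequenced from the dissected prefrontal cortex of C57BL/6 mice, an inbred strain, of wild-type genotype and aged 8 to 10 weeks. Before dissection the animals had spent 6 days either alone (single-housed, n = 3 libraries) or in company (group-housed, n = 3 libraries). The labels give neither the number of animals in a group cage nor whether a library stands for 1 mouse, and the spread between libraries may be partly technical. The series title names interferon-gamma, neuronal connectivity and social behaviour, and the design compares these 2 housing conditions.

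Fos-family proteins cannot pair with themselves and bind DNA as a dimer with a Jun-family partner, whereas Jun-family proteins can also pair with one another. In neurons, calcium entry and growth factor signals reach Fos and Junb through kinases that act on CREB and on serum response factor with its ETS partners, and the transcripts appear within minutes and decay quickly. Fos messenger RNA is for that reason widely used as a mark of recently active neurons. Jund is transcribed more steadily and is not a typical immediate early gene.

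Total counts ranged from 25858355 to 33428512 per library. Levels are given as CPM, a count scaled to a shared library size with TMM factors, which correct library totals for differences in composition. Differences are log2 values, single-housed minus group-housed, and carry the standard error (SE) of a model fitted over all genes. Counts of the 6 genes ran from 337 (Fosb) to 5303 (Jund) per library, for which the counting error alone is 5.45% and 1.37%. The glutamatergic marker Slc17a7 was at 1908 to 2169 CPM. The 10 cortical glutamatergic markers summed to 2894 to 3205 CPM with single and 2917 to 3249 CPM with group housing. Markers of striatal projection neurons, whose tissue lies beneath the frontal cortex, were uneven. The 19 genes summed to 3484, 1761 and 784 CPM in single-housed replicates 1, 2 and 3. In group-housed replicates 1, 2 and 3 they summed to 1706, 823 and 924 CPM. Their difference was positive for 19 of 19 genes (median 0.95), though the groups overlapped for each gene.

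Promoter windows are shown for Fos, Fosb and Junb, the members with the largest housing differences, and for Jun, which had nearly none. They come from RefSeq (GRCm38.p6; 1 window for each of 6 matched genes), run from 250 bases before to 50 bases after the annotated start, and are written 5′ to 3′ on the gene's strand. They lie at chr12:85473640-85473939 (+) for Fos, chr7:19309996-19310295 (-) for Fosb, chr8:84978699-84978998 (-) for Junb and chr4:95052173-95052472 (-) for Jun. Capitals mark TGACG (the core of a cyclic AMP response element, or CRE), the core promoter element TATAA, the element CCAAT and TGACATCA (a CRE-like variant known from the Jun promoter), searched on both strands.
Fos: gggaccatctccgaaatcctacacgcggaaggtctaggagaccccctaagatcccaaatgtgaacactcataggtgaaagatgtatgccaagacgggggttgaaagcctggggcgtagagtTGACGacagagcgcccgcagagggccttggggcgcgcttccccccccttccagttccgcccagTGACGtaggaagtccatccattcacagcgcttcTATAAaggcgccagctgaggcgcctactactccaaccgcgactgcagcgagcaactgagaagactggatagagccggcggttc
Fosb: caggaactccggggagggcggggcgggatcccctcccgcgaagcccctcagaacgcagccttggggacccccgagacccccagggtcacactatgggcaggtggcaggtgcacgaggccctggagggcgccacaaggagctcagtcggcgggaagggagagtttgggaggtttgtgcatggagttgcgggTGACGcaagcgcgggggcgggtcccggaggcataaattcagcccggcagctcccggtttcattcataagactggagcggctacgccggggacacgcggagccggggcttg
Junb: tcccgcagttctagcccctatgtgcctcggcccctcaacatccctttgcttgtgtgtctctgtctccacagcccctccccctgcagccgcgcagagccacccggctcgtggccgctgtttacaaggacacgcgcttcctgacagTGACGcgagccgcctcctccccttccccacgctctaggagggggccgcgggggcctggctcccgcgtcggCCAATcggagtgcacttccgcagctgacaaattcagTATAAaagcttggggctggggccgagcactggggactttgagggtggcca
Jun: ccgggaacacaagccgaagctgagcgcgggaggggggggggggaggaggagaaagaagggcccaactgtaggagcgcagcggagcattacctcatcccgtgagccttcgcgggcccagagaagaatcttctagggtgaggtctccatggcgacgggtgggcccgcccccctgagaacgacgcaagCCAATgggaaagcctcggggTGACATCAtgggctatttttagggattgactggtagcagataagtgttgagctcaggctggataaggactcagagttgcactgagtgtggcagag

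TGACG occurred in the windows of Fos (beginning 129 and 66 bases before the start), Fosb (60 bases before) and Junb (106 bases before), each on the gene's own strand. It was absent from those of Fosl2, Jun and Jund, and 20.8% of all 32851 RefSeq windows of this length hold it. TGACATCA stood 45 bases before the start of Jun and in none of the other 5 windows (3.62% of all windows). TATAA was present in Fos (33 bases before the start) and in Junb, where it began at the annotated start itself (24.9% of all windows), and CCAAT in Jun and Junb (37.4%). The GC box GGGCGG was found in Fos, Fosb, Fosl2 and Jun (35.7%). The full CRE TGACGTCA (1.79% of all windows), the AP-1 element TGANTCA (7.81%) and the CArG box bound by serum response factor (1.63%) were in 0 of the 6 windows. TGACG is also part of the full CRE, so those counts overlap. Sequence more than 250 bases before the start was not searched, so an element absent from a window may still lie there. Each match describes letters in a window and was not tied to binding or to the levels below.

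Fos, the classical activity-induced subunit gene, spans 4 exons at chromosome 12, 86814851 to 86818219 (mm9, plus strand). It was at 13.1, 15.7 and 11.6 CPM in single-housed replicates 1 to 3 in turn, and at 52.0, 23.0 and 33.2 CPM in group-housed replicates 1 to 3. The groups did not overlap, and the gap between the highest single-housed and the lowest group-housed library was smaller than the range among the group-housed libraries. The means were 13.5 ± 2.04 and 36.1 ± 14.7 CPM (SD, n = 3 each), a level 2.68-fold higher in company (log2 difference −1.42, SE 0.265). Of the 15258 genes tested, 4 had a more negative difference. Without group-housed replicate 1 the difference was −1.06, and without group-housed replicate 2 it was −1.66.

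Fosb encodes the full-length FosB protein and, by alternative splicing, the truncated and long-lived ΔFosB, which counts per gene cannot separate. The gene has 4 exons at chromosome 7, 19888045 to 19895394 (minus strand). It was at 11.6, 11.2 and 10.1 CPM in single-housed replicates 1 to 3 in turn, and at 17.9, 18.7 and 17.4 CPM in group-housed replicates 1 to 3. The libraries of each group lay close together and the groups did not overlap. The level was 1.64-fold higher in company (log2 difference −0.71, SE 0.0941).

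Fosl2 encodes Fra-2, a subunit that lacks the strong activation domain of Fos, and has 4 exons at chromosome 5, 32438845 to 32460212 (plus strand). It was at 31.0, 31.4 and 25.6 CPM in single-housed replicates 1 to 3 in turn, and at 30.0, 46.8 and 39.2 CPM in group-housed replicates 1 to 3. The groups overlapped through group-housed replicate 1, the library in which Fos was highest and Fosl2 lowest among the group-housed ones. The difference was −0.40 (SE 0.157), and −0.24 without group-housed replicate 2.

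Junb, an immediate early gene whose protein is a weaker activator than Jun and can oppose it, has a single exon at chromosome 8, 87500808 to 87502647 (minus strand). It was at 25.2, 42.7 and 36.9 CPM in single-housed replicates 1 to 3 in turn, and at 94.3, 38.9 and 62.6 CPM in group-housed replicates 1 to 3. Group-housed replicate 2 lay below single-housed replicate 2, so the groups overlapped although the means differed 1.87-fold (35.0 ± 8.90 against 65.3 ± 27.8 CPM, SD, n = 3 each). The log2 difference was −0.90 (SE 0.298), −0.54 without group-housed replicate 1 and −1.16 without group-housed replicate 2.

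Jun encodes c-Jun, the subunit activated by the JNK kinases, and has 1 exon at chromosome 4, 94715727 to 94718913 (minus strand). It was at 41.9, 46.5 and 44.9 CPM in single-housed replicates 1 to 3 in turn, and at 54.3, 35.5 and 44.8 CPM in group-housed replicates 1 to 3. The 3 single-housed libraries fell inside the range of the group-housed ones, and the difference was −0.01 (SE 0.139). Its sign was positive in 5 of 15 alternative settings, among them the fit without group-housed replicate 1 (0.15).

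Jund, the steadily transcribed member, has 1 exon at chromosome 8, 73221638 to 73224515 (plus strand). It was at 129, 123 and 123 CPM in single-housed replicates 1 to 3 in turn, and at 175, 124 and 168 CPM in group-housed replicates 1 to 3. Group-housed replicate 2 sat among the single-housed libraries, while the other group-housed libraries were above all of them. The difference was −0.32 (SE 0.122), and −0.46 without group-housed replicate 2. No other row of the deposited table had an exon overlapping an exon of these 6 genes, on either strand.

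**Figure D1:**
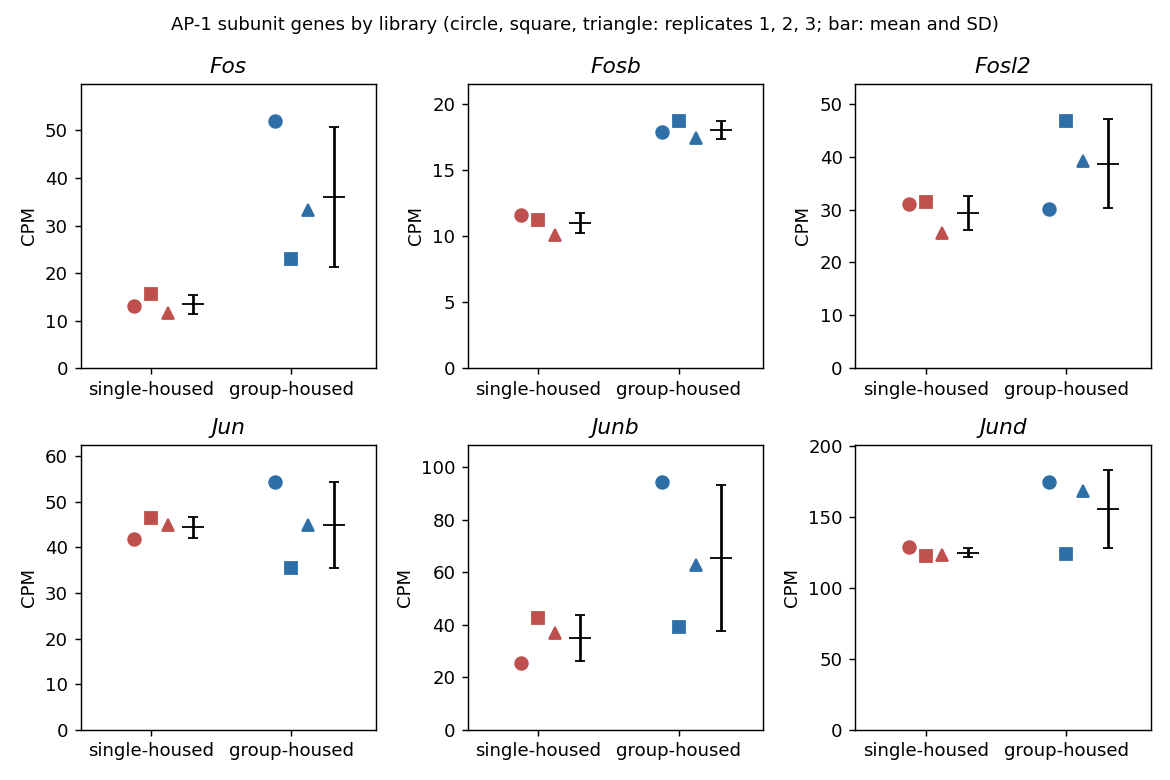
Level of each gene (CPM, linear axis from 0) in single-housed (red) and group-housed (blue) libraries, with circles, squares and triangles for replicates 1, 2 and 3 and bars for the mean and SD. Fos and Fosb are the 2 genes whose groups do not overlap; group-housed replicate 1 (circle) is the highest library for Fos, Jun, Junb and Jund.

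The difference was negative for 6 of 6 members, with a median of −0.56. Of all genes tested, 49.3% were lower and the median was 0.00. Among the marker lists, 7 of 7 microglia genes were lower, and 19 of 19 striatal and 7 of 7 fibroblast genes were higher. The other marker lists had genes on both sides. All 3 single-housed libraries were below all 3 group-housed ones for 2 of 6 members, against 2.4% of all genes tested; without group-housed replicate 2 the count was 4, against 12.6% of all genes tested. They were above for 0 of 6 members (2.46% of all genes tested). By edgeR's quasi-likelihood test with Benjamini-Hochberg adjustment, 0 of 15258 genes were lower (0%) or higher in single-housed libraries, members included, and 238 had an unadjusted p under 0.05. DESeq2 called 6 of 19097 genes lower (0.0314%), Fos and Fosb among them, and limma-voom called 0. Because the members were chosen with this contrast known, nothing is read from these counts.

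With the mean of the striatal markers as a covariate, the differences were −1.57 (SE 0.207) for Fos, −0.75 (SE 0.104) for Fosb, −0.37 (SE 0.173) for Fosl2, −0.06 (SE 0.136) for Jun, −0.94 (SE 0.288) for Junb and −0.37 (SE 0.117) for Jund. Without the covariate they were −1.42, −0.71, −0.40, −0.01, −0.90 and −0.32 in the same order of genes. Leaving out the 3 libraries with the highest striatal mean left single-housed replicate 3 against group-housed replicates 2 and 3, and the lone library is then assumed to vary like the others. There 5 of 6 members were lower without overlap, as were 26.9% of all genes tested. The difference of Fosl2 was −0.75 in that fit and that of Junb −0.46. The part of striatal tissue in the differences of the members was not tested.

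**Figure D2:**
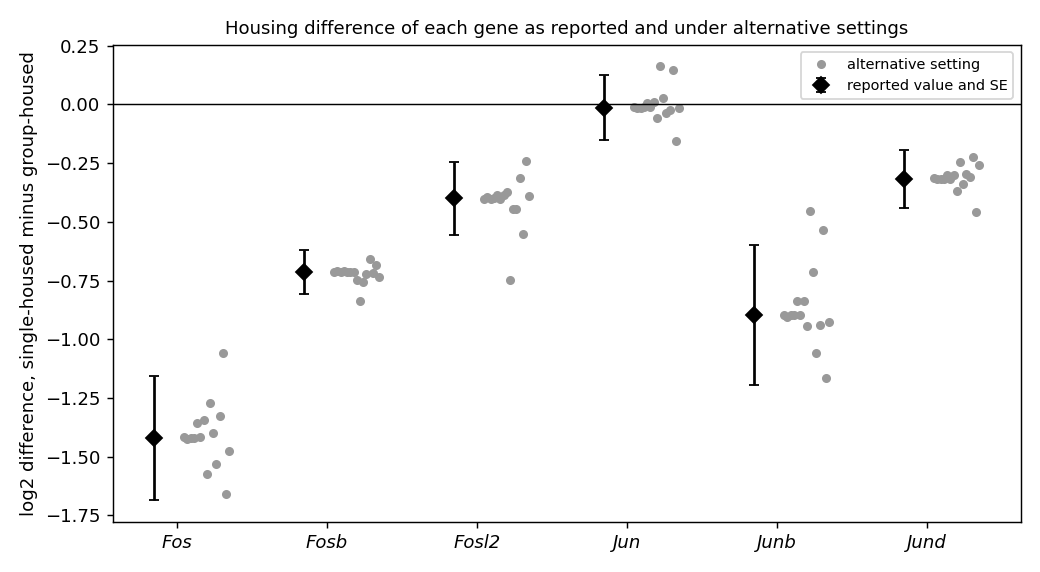
Log2 difference (single-housed minus group-housed) of each gene: the black diamond is the reported value with its SE, and each grey point is 1 of 15 alternative settings (other scalings, filters and tools, a covariate, left-out libraries). All points for Fos, Fosb, Fosl2, Junb and Jund are below 0, while those for Jun lie on both sides.

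Levels of different genes were compared per kilobase of exon, as RPKM (the CPM value divided by the exon length in kilobases). Jund was the most abundant at 48.8 ± 8.45 RPKM over the 6 libraries, followed by Junb at 27.2 ± 13.5, Jun at 14.0 ± 1.93, Fos at 11.8 ± 7.43, Fosl2 at 5.80 ± 1.30 and Fosb at 3.84 ± 1.03 RPKM (SD, n = 6). Jund, Junb, Fosl2 and Fosb kept their places in 6 of 6 libraries. With single housing Jun was at 13.9 ± 0.723 RPKM and Fos at 6.43 ± 0.976, without overlap, and with group housing at 14.1 ± 2.96 and 17.2 ± 7.04 RPKM (SD, n = 3 each), with overlap. Jun was above Fos in the 3 single-housed libraries and in group-housed replicate 2, and below it in group-housed replicates 1 and 3. Junb came close to Jun in single-housed replicate 1 (13.7 against 13.2 RPKM), and across different libraries the ranges of Jund and Junb, and those of Fosl2 and Fosb, overlapped. The highest library exceeded the lowest 4.47-fold for Fos and 3.74-fold for Junb, but 1.42-fold for Jund and 1.53-fold for Jun.

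The make-up of the subunit RNA describes the same counts in another form. The shares, sums and ratios that follow are therefore no separate evidence of a housing difference. Fos, Fosb and Fosl2 together held 16.9%, 16.4% and 14.1% of the summed RPKM of the 6 genes in single-housed replicates 1, 2 and 3. In group-housed replicates 1, 2 and 3 they held 21.2%, 24.1% and 20.3%, so each group-housed library had a larger Fos-family share (single-housed minus group-housed, −6.05 percentage points). Most of that gap was Fos, at 7.07 ± 0.800% with single and 12.7 ± 2.19% with group housing (SD, n = 3 each). Fosl2 had nearly the same share in both, 5.52 ± 0.633% and 5.39 ± 2.47%. Jun, whose mean level was nearly the same in both groups, took 15.1% to 15.7% with single and 10.4% to 11.2% with group housing. Shares sum to a whole, so a higher Fos or Junb lowers the share of the others.

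The summed level of the 6 genes was 86.2 to 96.3 RPKM with single and 99.4 to 164 RPKM with group housing. The 3 Fos-family genes summed to 12.6 to 15.8 against 23.9 to 34.7 RPKM, without overlap. The 3 Jun-family genes summed to 71.6 to 80.5 against 75.4 to 129 RPKM, with overlap. In bulk tissue, fewer cells expressing a gene and less RNA per cell cannot be told apart, which holds for all these levels.

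**Figure D3:**
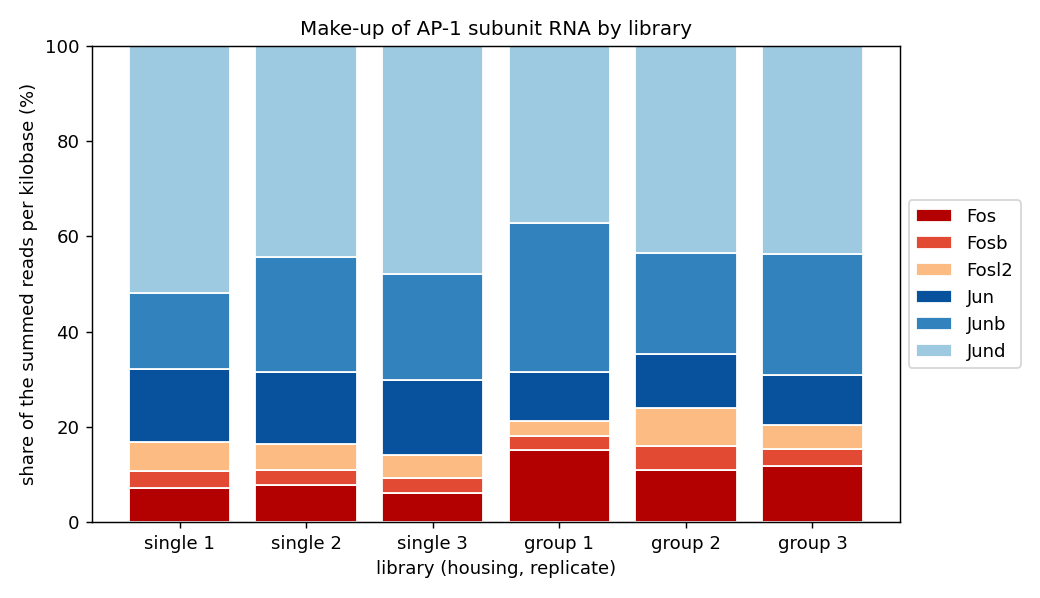
Share of each gene in the summed reads per kilobase of the 6 subunit genes (%), 1 stacked bar per library, Fos family in red shades and Jun family in blue shades. The red part ends between 14.1% and 16.9% for single and between 20.3% and 24.1% for group housing.

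Ratios between members show where the families were uneven. Fos stood at 2.03, 2.51 and 2.08 times the RPKM of Fosb in single-housed replicates 1 to 3 in turn, and at 5.25, 2.21 and 3.44 times in group-housed replicates 1, 2 and 3. Group-housed replicate 2 thus had a Fos to Fosb ratio inside the single-housed range, with both genes above their single-housed levels. Junb stood at 1.04, 1.59 and 1.43 times the RPKM of Jun with single housing and at 3.01, 1.90 and 2.42 times with group housing (replicates 1, 2 and 3), without overlap.

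Variation among libraries of the same housing, given as a description, differed widely between members. The pooled within-group SD of log2 CPM was 0.443 for Fos and 0.529 for Junb, larger than in 94.1% and 96.5% of genes tested, against a median of 0.140 over all of them. It was 0.255 for Fosl2, 0.224 for Jun and 0.193 for Jund. Fosb, at 0.0824, ranked at the 20.1 percentile of all genes tested. Of the 2 members whose groups did not overlap, Fos had the larger difference and the larger spread. The SD was larger among group-housed than single-housed libraries for 5 of 6 members (Fosb excepted), as it was for 67.6% of all genes tested.

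The spread had a direction. In group-housed replicate 1, Fos was 0.61, Junb 0.62, Jun 0.30 and Jund 0.18 log2 units above the mean of its group. In group-housed replicate 2 the same 4 genes were below it, by −0.57, −0.65, −0.32 and −0.31. Fosl2 went the other way, at −0.34 in replicate 1 and 0.30 in replicate 2, and Fosb stayed within −0.05 and 0.06 in the 3 libraries. The order replicate 1, 3, 2 from high to low was shown by 4 of 6 members and by 25.4% of all genes tested. Among single-housed libraries, Junb was low in replicate 1 (−0.44) and Fos high in replicate 2 (0.23), with no order common to the members.

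**Figure D4:**
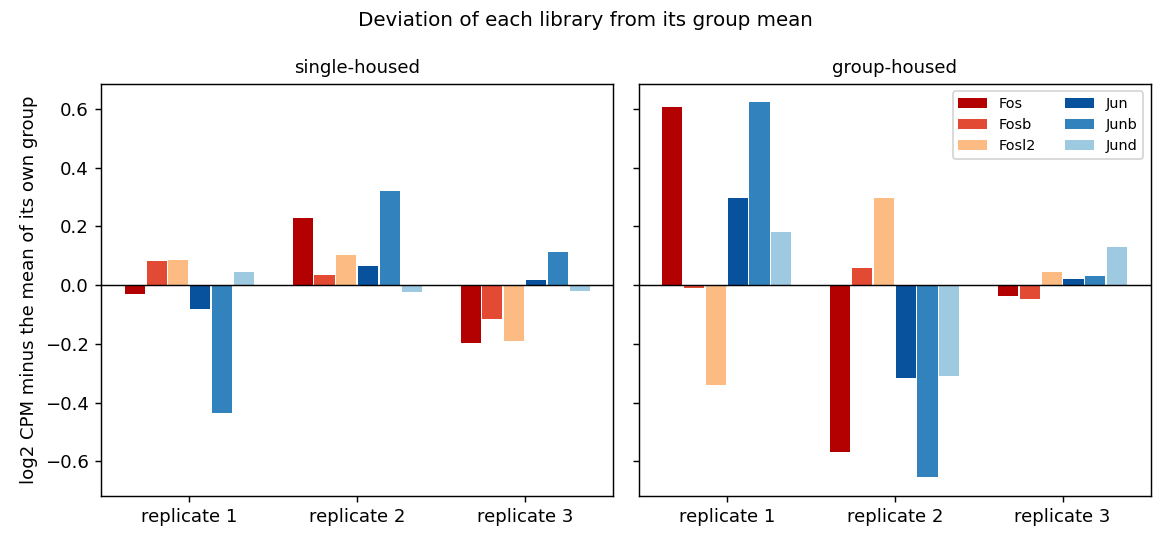
Log2 CPM of each gene minus the mean of its own housing group, for the 3 single-housed (left) and 3 group-housed libraries (right). In group-housed replicates 1 and 2, Fos, Jun, Junb and Jund deviate to one side together and Fosl2 to the other, while Fosb stays near 0.

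Markers of several cell types had the same order in the group-housed libraries. It was shown by 7 of 7 myelin genes (summed 5392, 1969 and 3110 CPM in replicates 1, 2 and 3), 7 of 7 microglia genes (432, 350 and 376 CPM), 17 of 19 striatal genes and 5 of 7 astrocyte genes (summed 3625, 3793 and 3705 CPM, so the sum itself had another order). It was shown by 1 of 10 cortical glutamatergic, 3 of 8 interneuron, 1 of 7 endothelial and 0 of 7 fibroblast genes. Among single-housed libraries the myelin genes summed to 4217, 4015 and 1995 CPM, the microglia genes to 375, 360 and 359 CPM and the astrocyte genes to 3829, 3499 and 3782 CPM. Interneuron markers summed to 982 to 1130 CPM with single and 982 to 1128 CPM with group housing, and endothelial markers to 149 to 177 and 142 to 167 CPM. Fibroblast markers were at 99.9 to 102 and 87.2 to 95.5 CPM. No marker was at 0 in all libraries. The part of these cell types in the subunit levels within a group was not tested.

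Other basic leucine zipper genes, whose proteins can pair with or resemble the AP-1 subunits, had no common direction. Of 22 listed, 18 were tested: 10 had a negative and 8 a positive difference (median −0.03), and 0 passed the edgeR test in either direction. Fosl1, the remaining Fos-family gene, had 1, 1 and 4 counts in single-housed and 3, 2 and 7 counts in group-housed replicates 1, 2 and 3 and was not tested. Mafk, a small Maf gene, was at 9.01, 9.66 and 8.46 against 7.93, 7.56 and 7.97 CPM, without overlap (0.21, SE 0.102). Cebpb, a C/EBP factor gene, had a difference of −0.35 (SE 0.181) and the stress-induced Atf3 one of 0.03 (SE 0.379), at 0.240 to 0.508 CPM.

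The signalling genes that lead to Fos and Jun transcription had differences in both directions. Of 20 kinase genes of the ERK, JNK, p38, RSK, CaMK and protein kinase A routes, 11 were lower and 9 higher (median −0.01). Among 18 genes for factors and coactivators at Fos and Jun promoters, 6 were lower and 12 higher (median 0.02). In each list 0 passed the test. Map2k3, a p38-activating kinase gene, was at 13.4, 13.8 and 14.8 against 16.3, 15.2 and 17.2 CPM (−0.22, SE 0.0935), and Rps6ka5, which encodes the nuclear kinase MSK1, had a difference of 0.31 (SE 0.157). Map2k6, another p38-activating kinase gene, had one of 0.20 (SE 0.148). Atf1, a relative of CREB, was at 6.41, 6.40 and 6.45 against 7.18, 7.43 and 6.73 CPM (−0.15, SE 0.104), Elk1, an ETS partner of serum response factor, differed by 0.10 (SE 0.0759) and Crem, a CREB family gene, by −0.12 (SE 0.109).

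Genes that act on the transcripts and proteins also lay on both sides of 0. Of 8 genes for proteins that bind AU-rich elements and set the life of short-lived messages, 4 were lower and 4 higher (median −0.00). Zfp36, which encodes the decay factor tristetraprolin, was at 2.93, 2.84 and 2.58 against 5.07, 2.78 and 2.76 CPM; group-housed replicate 1 was the highest library, as it was for Fos and Junb. Zfp36l1 and Zfp36l2 had differences of −0.18 (SE 0.153) and −0.17 (SE 0.130). Of 6 ubiquitin ligase and deubiquitinase genes, 3 were lower and 3 higher (median −0.00), among them Fbxw7 (−0.06, SE 0.0801), Rfwd2 (−0.05, SE 0.0915) and Ubr1 (0.12, SE 0.0942), and 0 passed the test in these 2 lists.

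Genes described as AP-1 targets lay on both sides of 0 as well. Of 21 tested among 22 listed, 13 were lower and 8 higher (median −0.05), with 0 past the test. Without overlap, 3 were lower and 1 higher (2.4% and 2.46% of all genes tested). Nptx2, a neuronal pentraxin gene induced by activity, was at 88.2, 71.4 and 74.9 CPM in single-housed and 90.3, 101 and 99.6 CPM in group-housed replicates 1, 2 and 3. Its groups did not overlap (−0.31, SE 0.0942), and group-housed replicate 1, where Fos was highest, had the lowest group-housed level. Ccnd1, the cyclin D1 gene, had a difference of −0.20 (SE 0.0856) and Scg2, the secretogranin II gene, one of 0.02 (SE 0.0731). Pdyn, the prodynorphin gene, was at 13.1, 9.90 and 10.2 against 7.63, 9.62 and 9.49 CPM (0.31, SE 0.144). Striatal neurons express Pdyn strongly. With the mean of the striatal markers as a covariate, its difference was 0.28 (SE 0.16). It was 0.09 once the 3 libraries with the highest striatal mean were left out, a fit with a lone single-housed library. The part of striatal tissue in the Pdyn difference was not tested.

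The genes whose library profile came nearest to a member were found by centring each log2 CPM profile on its own mean and averaging the absolute difference over the 6 libraries. For Fos, whose own profile departed from its mean by 0.67 on average, they were the immediate early gene Egr2 (0.16), the myosin heavy chain gene Myh13 (0.26), the orphan nuclear receptor gene Nr4a1 (0.33) and the zinc-finger factor gene Egr4 (0.34). Egr2 was at 3.54, 3.02 and 3.09 CPM in single-housed and 14.0, 6.71 and 11.5 CPM in group-housed replicates 1, 2 and 3, with the same order among group-housed libraries as Fos. Myh13 was at 0.330 to 0.508 against 0.857 to 1.20 CPM. For Fos, Junb and Fosb alike, the centring spanned both groups and left the housing difference in each profile. Nearness to a member therefore partly reflects a shared housing difference and is no separate evidence of one. The differences of the listed neighbours ran from −1.74 (Egr2) to −0.50 (Ccrl2).

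For Junb (0.50 on average) the nearest were Mdfi (0.13), Nr4a1 (0.14), Ier2 (0.14) and Dusp1 (0.20), of which Nr4a1, Ier2 and the phosphatase gene Dusp1 are immediate early genes and Mdfi was at 0.183 to 0.676 CPM. Nr4a1 was at 44.0, 86.2 and 72.2 CPM in single-housed and 165, 96.1 and 113 CPM in group-housed replicates 1, 2 and 3. It repeated the low value of single-housed replicate 1 and the high value of group-housed replicate 1 seen for Junb. For Fosb (0.36 on average) the nearest were Ccrl2 (0.12), Hes7 (0.13), Rbpms2 (0.13) and Zfp771 (0.14). None of these is a typical immediate early gene, and Ccrl2 and Hes7 were at 0.270 to 1.05 CPM, a level at which counting error is large. Counting error is also large for Mdfi and for Myh13, the neighbour of Fos. Zfp771, a zinc-finger gene, was at 19.3 to 23.8 against 26.9 to 32.0 CPM.

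Among the members themselves, the closest profiles by the same measure were Jun and Jund (0.15) and Fosb and Fosl2 (0.19), and the most distant were Fos and Jun (0.68). Fos and Junb were 0.30 apart. Fosb lay nearer to Jund (0.21) than to Fos (0.42). The measure depends on the size of the departures as well as their direction, and members with small departures lie close together. Fos ranged over 2.15 log2 units and Fosb over 0.885, so a small value need not mean a like order of libraries.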

How the data were processed

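Per the file headers, the deposited table gives, for each library in a column of its own, raw read counts per gene, in the featureCounts layout, not normalized by the authors. The submitters' processing notes name FastQC, STAR, featureCounts and mouse build mm9; versions, annotation and strand setting were not given in the sources used here. Per the labels' protocols, libraries came from a stranded kit selecting messenger RNA. The deposited length column equals the summed exon bases of each member and gave the RPKM values.

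Single-housed and group-housed libraries (n = 3 each, grouped by title) were compared with edgeR 4.0.16 (R 4.3.3): filterByExpr (minimum count 10, minimum total 15), TMM scaling, quasi-likelihood F-test and Benjamini-Hochberg adjustment over 15258 genes at 0.05. SEs were derived from the F statistic, and log2 CPM used a prior count of 2. The fit was also run on simulated counts with the same relative variation for each gene. That run does not cover genes as variable as Fos and Junb. Libraries differed by more than sampling noise (chi-square per degree of freedom 8.21 to 38.7). Alternatives were DESeq2 1.42.0, limma-voom (limma 3.58.1), other scalings and filters, left-out libraries, the replicate number as a block, and striatal markers. Members and lists were chosen with earlier results of these data known. The text names the 6 members, the 3 genes of smallest p in each of 6 pathway lists, the 4 nearest profiles to Fos, Fosb and Junb (predicted genes skipped), and a few genes fixed by name; some of these are not reported here.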

Additional observations from a re-analysis of the deposited data

How the results depend on the processing

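Of the 15 alternative settings, 0 genes were called under those not listed here. DESeq2 called 6 genes lower and 2 higher, and the fit without the 3 libraries with the highest striatal mean 3 lower and 1 higher. Leaving out 1 library gave 0 or 1 lower gene. The cause of these differences was not tested. The listed pathway and marker genes had 0 calls under each of the 15. The members lower without overlap numbered 2 to 4 with 1 library left out (4.55% to 12.6% of all genes tested) and 5 without the 3 libraries (26.9%). The differences of Fos, Fosb, Fosl2, Junb and Jund kept their sign in 15 of 15 settings, from −1.66 to −1.06 for Fos and from −0.84 to −0.66 for Fosb. The Fos-family share differed by −6.83 to −4.95 percentage points with 1 library left out. Replicate numbers showed no clear pairing of the libraries (correlation of deviations over genes 0.27, −0.32 and 0.17 for numbers 1, 2 and 3). Pairs of unlike numbers ran from −0.43 to 0.35. These values cannot show whether libraries shared a cage or batch. With the replicate block, 0 genes were called and Fos differed by −1.36. Fosl1, with 1 to 7 counts a library, was not tested.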
